A study of Mus musculus with 16 samples.

Results

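The genes described here encode the iron and siderophore machinery of the mouse liver. They are Hamp, Slc40a1, Tfrc, Tfr2, Trf, Fth1, Hfe, Bmp6, Slc11a2 and Bdh2, 10 of 24356 genes tested, and the question was how their transcripts differed with carbon tetrachloride (CCl4) injury and with loss of lipocalin 2 (Lcn2), the protein that captures siderophores. They were chosen by name. The arrays' own gene names gave 9 of them, and Tfr2 was found through its RefSeq accession because the array carries it as Trfr2. Liver RNA of male BALB/c mice was hybridised to 16 single-colour Agilent arrays. The mice were wild type (WT) or Lcn2-/-, entered the experiment at 6 to 8 weeks of age and received 0.5 ml/kg CCl4 in corn oil into the peritoneum 2 times a week for 4 weeks, or corn oil alone, and livers from the CCl4 groups were taken 48 h after the last dose. The groups held 4 WT control, 5 WT CCl4, 3 Lcn2-/- control and 4 Lcn2-/- CCl4 arrays. The Lcn2 deletion was made in 129/Ola and C57BL/6 stock and then crossed onto BALB/c, so donor DNA that flanks the gene cannot be told apart from the loss of Lcn2. The labels do not state that replicates came from separate mice, and p-values measure the spread between these arrays, which may be technical.

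The liver sets the iron level of the whole body. Hepatocytes secrete hepcidin, the product of Hamp, which binds ferroportin (Slc40a1), the only known cellular iron exporter, and removes it from the surface of macrophages, enterocytes and hepatocytes. Hepcidin transcription is driven by bone morphogenetic proteins, chiefly BMP6 from sinusoidal endothelial cells, through SMAD factors, and by interleukin 6 through STAT3, while HFE and transferrin receptor 2 report how much iron transferrin carries. Cells take up transferrin (Trf) with its iron through transferrin receptor 1 (Tfrc), move the iron out of the endosome through DMT1 (Slc11a2) and store it in ferritin, whose heavy chain is Fth1. When a cell is short of iron, iron regulatory proteins stabilise the Tfrc transcript and block translation of ferritin. BDH2 is a dehydrogenase that has been described as making a mammalian siderophore, dihydroxybenzoic acid, and lipocalin 2 binds siderophores together with their iron.

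Between 51.6% and 60.9% of gene spots were well above background on an array, no gene spot was saturated, and every member was well above background on all 16 arrays. Values below are log2 signals after quantile normalisation, and differences are log2 differences with their standard error (SE) and limma's p adjusted over all 24356 genes. Lcn2 itself was lower in Lcn2-/- than in WT livers by 4.14 ± 0.76 in controls (adjusted p = 0.021) and by 3.32 ± 0.67 after CCl4 (adjusted p = 0.040), with no overlap in either treatment, the direction the genotype labels imply. Between the genotypes, 9.64% of all genes in controls and 5.66% after CCl4 had groups that did not overlap. Lcn2 signal stayed well above background on all 7 Lcn2-/- arrays (10.47 to 12.25), and whether the probe lies in the deleted stretch was not tested. With the replicate number as a block these differences were -4.26 (adjusted p = 0.064) and -3.47 (adjusted p = 0.077). After CCl4 the call was also lost with the slide as a fixed block (-3.45, adjusted p = 0.055), without the filter on dim probes (adjusted p = 0.064) and in 13 of 16 fits that left out 1 array, and in controls it was lost without Lcn2-/- control replicate 1 or 2. Its WT control replicate 3 read 17.57 where the other WT controls read 13.79 to 14.69. On the first principal component, which held 40.1% of the variance, the controls numbered 3 lay nearest the CCl4 arrays in each genotype (-0.48 in WT and -43.2 in Lcn2-/-, against -75.3 to -40.9 and -94.7 to -88 for the other controls and 16.7 to 70.7 for all CCl4 arrays). For 3 genes called after CCl4 and picked with their values known, Hamp2 read 13.09 and 13.20 on these arrays against 15.60 to 17.62 on the CCl4 arrays, and Heph 8.84 and 8.23 against 9.18 to 10.50. Steap2 read 8.81 and 10.36 against 10.47 to 11.77, so that Lcn2-/- control replicate 3 lay next to the CCl4 range for that gene. The summed log2 level of neutrophil markers was 15.45 and 15.89 on these arrays. It was 13.36 to 13.98 on the other controls and 14.73 to 16.33 after CCl4. For macrophage markers it was 18.29 and 18.32, above all other arrays (16.63 to 17.17). These sums too were picked with their values known. Why the controls numbered 3 stand apart was not tested, and whether they were mislabelled cannot be settled from the labels. Without both, the count of members called stayed at 1 in WT (Slc11a2 at 0.91, adjusted p = 0.0027) and 0 in Lcn2-/- livers. The share of all genes called was then 22.4% in WT and 15.1% in Lcn2-/- livers, against 16.8% and 12.2% with all arrays. All 7 controls and WT CCl4 replicate 1 shared slide 1, and the other 8 CCl4 arrays shared slide 2, so treatment and slide can be told apart only through that single WT array. Some marker genes were called after CCl4. Of all genes, 8.01% rose and 8.8% fell in WT livers, and 6.57% rose and 5.61% fell in Lcn2-/- livers. In WT livers 6 of 6 stellate cell, 5 of 8 neutrophil and 1 of 6 proliferation markers rose, 2 of 6 measured erythroid markers fell, and of 8 macrophage markers 1 rose (Cd68) and 2 fell (Clec4f and Timd4, both of Kupffer cells). The neutrophil count includes Ngp, which passed the filter on dim probes only through the CCl4 groups, where it is high, and is 4 without it. Of 8 sinusoidal endothelial markers 1 rose (Lyve1) and 1 fell (Stab2). In Lcn2-/- livers 5 of 6 stellate, 1 of 8 neutrophil, 1 of 6 proliferation, 1 of 8 macrophage and 1 of 8 endothelial markers rose and 0 of 6 erythroid markers were called. The neutrophil counts do not show a weaker response in Lcn2-/- livers. The test of whether the responses differed called 0 of 8 neutrophil markers (0.0534% of all genes). In their sum, Lcn2-/- control replicate 3 (15.89) lay above all Lcn2-/- CCl4 arrays (14.73 to 15.25). Between the genotypes after CCl4, where 0.632% of all genes were called, the erythroid marker Klf1 was higher in Lcn2-/- livers (1.03 ± 0.22, adjusted p = 0.048). None of 8 hepatocyte markers was called in any of the 5 contrasts, and their summed log2 level lay between 21.07 and 21.34 on every array. That sum is led by markers such as Alb (group means 18.91 to 19.01), among the brightest genes shown. Quantile normalisation gives every array the same set of values, which limits how far such genes can move. The sum therefore cannot show how much of the RNA came from hepatocytes. The part of these cell changes in the results below was not tested, and in bulk liver fewer cells of a type and less RNA per cell cannot be told apart.

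Most of the 10 genes were not called in any comparison. After CCl4 in WT livers 1 of 10 was called (Slc11a2, higher), against 16.8% of all genes, and in Lcn2-/- livers 0 of 10 against 12.2%. At an unadjusted p under 0.05 the counts were 3 and 2, where 30.7% and 27% of all genes passed. Lcn2-/- minus WT gave 0 of 10 after CCl4 (background 0.632%) and 0 of 10 in controls (0.53%), with 1 and 0 at an unadjusted p under 0.05 (13.7% and 8.3% of all genes). The test of whether the CCl4 response differed between the genotypes called 0 of 10 (background 0.0534%), and 0 at an unadjusted p under 0.05 (3.33% of all genes). By direction, the background was 0.304% higher and 0.328% lower for genotype after CCl4, 0.238% and 0.292% in controls, and 0.0205% and 0.0328% for the difference between responses. The median member difference was 0.0072 in WT and 0.12 in Lcn2-/-, beside -0.032 and -0.023 over all genes. With each array given a quality weight the counts of members called were 3 in WT and 2 in Lcn2-/-, when 29% and 28.5% of all genes were called. With arrays scaled to their 75th percentile they were 4 and 1, against 21.1% and 13.3% of all genes.

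**Figure D1:**
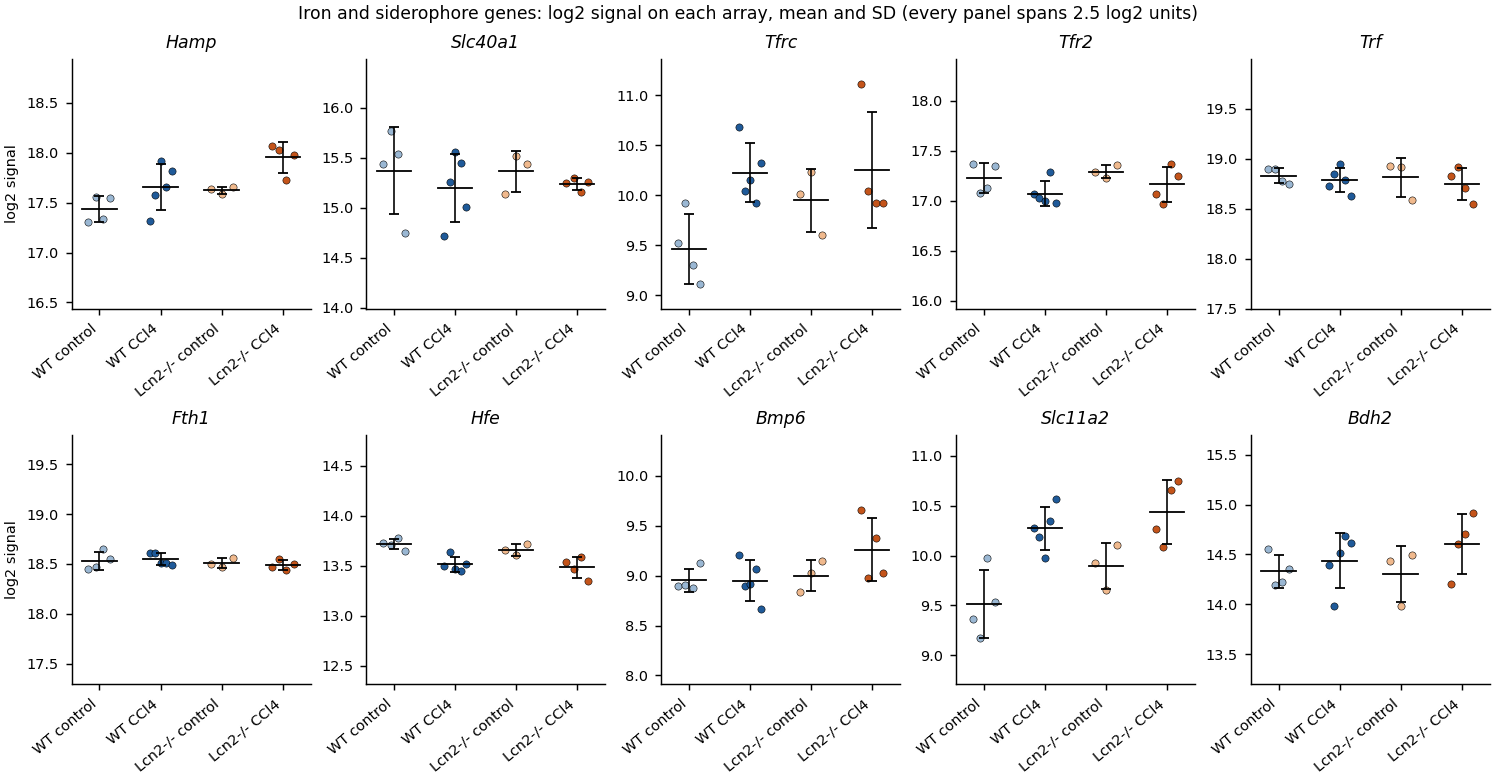
Log2 signal of the 10 genes on each of 16 arrays (points) by group, with the group mean (bar) and SD; every panel spans the same number of log2 units. Slc11a2 lies higher after CCl4 in WT livers, while Trf and Fth1 stay within a narrow band.

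Hamp, the hepcidin gene, differed little between groups. Its probe, at chr7:31727490-31727549 on the minus strand (mm9), read 17.30, 17.56, 17.34 and 17.54 in the WT controls and 17.31, 17.58, 17.91, 17.65 and 17.82 after CCl4. In Lcn2-/- livers it read 17.63, 17.58 and 17.65 in controls and 18.07, 18.03, 17.73 and 17.98 after CCl4. The WT groups overlapped, whereas every Lcn2-/- CCl4 array lay above every Lcn2-/- control and every Lcn2-/- control above every WT control. Groups without overlap occurred for 24.8% and 9.64% of all genes in these comparisons. The CCl4 difference was 0.22 ± 0.12 in WT (adjusted p = 0.25, 95% interval -0.04 to 0.48) and 0.33 ± 0.14 in Lcn2-/- (adjusted p = 0.14, interval 0.03 to 0.63). Both turned sign, to -0.13 and -0.013, when arrays were scaled to their 75th percentile, and to -0.12 and -0.096 with the slide as a block. Across genotypes Hamp was 0.30 ± 0.12 higher in Lcn2-/- than WT livers after CCl4 (adjusted p = 0.32) and 0.19 ± 0.14 higher in controls (adjusted p = 0.91), and neither difference passed the test.

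Mice carry a close copy of the gene, Hamp2, whose product has not been shown to act on ferroportin as hepcidin does. Hamp2 rose strongly with CCl4 in both genotypes. Its probe, at chr7:31707520-31707579 (mm9, minus strand), read 13.30, 14.27, 13.09 and 14.34 in WT controls and 16.73, 16.05, 16.26, 17.62 and 17.57 after CCl4, and 13.01, 11.73 and 13.20 in Lcn2-/- controls and 16.84, 17.39, 15.60 and 16.37 after CCl4. All CCl4 arrays lay above all controls, and 17.4% of all genes in WT and 24.8% in Lcn2-/- livers had groups that did not overlap. The rise was 3.10 ± 0.46 in WT (8.56-fold, adjusted p = 0.00034) and 3.90 ± 0.52 in Lcn2-/- (14.9-fold, adjusted p = 0.00027), and the responses of the genotypes did not differ by the interaction test (0.80 ± 0.69, adjusted p = 1.00). The log2 change of Hamp2 exceeded that of Hamp by 2.88 in WT and by 3.57 in Lcn2-/- livers, given as a description because Hamp2, which is not among the 10 genes, was set beside Hamp with its values known. With the 75th percentile scaling Hamp differed by -0.13 and -0.013 and Hamp2 rose by 2.85 and 3.89. With the slide as a block the rise stood at 2.98 in WT (adjusted p = 0.045) and 3.75 in Lcn2-/- (adjusted p = 0.067), and the CCl4 array that shared a slide with the controls read 16.73.

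**Figure D2:**
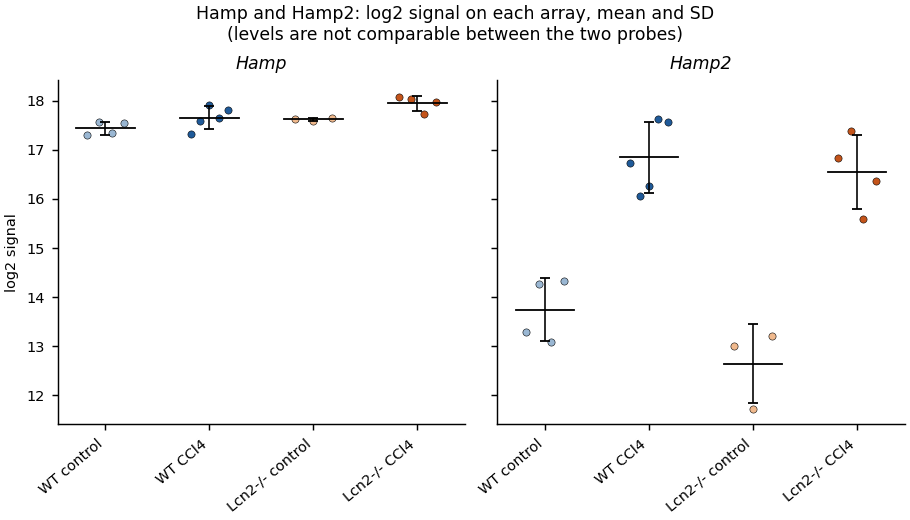
Log2 signal of Hamp and its copy Hamp2 on each array (points) by group, with mean (bar) and SD. Hamp stays between 17.30 and 18.07 throughout, while Hamp2 lies between 11.73 and 14.34 in controls and between 15.60 and 17.62 after CCl4.

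The probes and the promoters of the pair are shown because the copies are alike in sequence while the values above differ. The 60 bases of the probes follow from the array files, with capitals where the copies differ when the Hamp2 probe is laid 1 base along the Hamp probe.
Hamp probe: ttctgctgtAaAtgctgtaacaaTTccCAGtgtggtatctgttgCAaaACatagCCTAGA
Hamp2 probe: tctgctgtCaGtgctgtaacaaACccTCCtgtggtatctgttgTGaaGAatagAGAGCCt
Of 59 aligned bases 42 were identical (71.2%), with 17 differences. Whether RNA of either copy binds the probe of the other was not tested. The 250 bases before the transcription start, from RefSeq on GRCm38.p6, carry in capitals the matches to the BMP-responsive element core GGCGCC and to the STAT site TTCNNNGAA, each of which reads the same on both strands. The Hamp stretch is chr7:30944030-30944279 and that of Hamp2 chr7:30924182-30924431, both on the minus strand and printed 5′ to 3′.
Hamp promoter: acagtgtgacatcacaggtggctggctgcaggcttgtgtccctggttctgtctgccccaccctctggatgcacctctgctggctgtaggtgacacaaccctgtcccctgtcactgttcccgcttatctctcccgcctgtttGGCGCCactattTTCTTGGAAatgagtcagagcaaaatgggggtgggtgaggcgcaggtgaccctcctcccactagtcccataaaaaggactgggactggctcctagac
Hamp2 promoter: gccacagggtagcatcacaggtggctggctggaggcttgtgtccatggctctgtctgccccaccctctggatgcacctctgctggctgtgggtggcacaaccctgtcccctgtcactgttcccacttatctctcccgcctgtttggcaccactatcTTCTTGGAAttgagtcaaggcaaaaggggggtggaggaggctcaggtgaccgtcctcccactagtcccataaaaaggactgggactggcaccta
In an alignment of 253 columns the promoters were identical in 227 (89.7%), with 6 gap columns. The STAT match lies 97 bases before the start in Hamp and 94 in Hamp2 and is the same in both. The BMP element core, 109 bases before the start of Hamp, carries the substitution G4A in Hamp2 (position counted from 1 at the first G of the core, Hamp's base first), so its letters are not matched there. Among 32851 promoter entries 9.59% hold GGCGCC and 7.02% hold TTCNNNGAA in this window. Of the 10 genes, 7 have an entry in the table, of which Hamp and Tfrc hold the first motif and Hamp alone the second.

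Of the members that sense iron and signal to Hamp, none was called in any comparison. The share of all genes called with CCl4 was 16.8% in WT and 12.2% in Lcn2-/- livers. For genotype it was 0.632% after CCl4 and 0.53% in controls, and for the interaction 0.0534%. Bmp6, the main ligand, read 8.90, 8.91, 8.88 and 9.12 in WT controls, 9.21, 8.90, 8.91, 9.06 and 8.67 after CCl4, 8.83, 9.02 and 9.15 in Lcn2-/- controls and 9.65, 8.98, 9.37 and 9.03 after CCl4. All groups overlapped. Its CCl4 difference was -0.0016 ± 0.15 in WT (adjusted p = 1.00, interval -0.32 to 0.31) and 0.26 ± 0.17 in Lcn2-/- (adjusted p = 0.35), and Lcn2-/- minus WT after CCl4 was 0.31 ± 0.15 (adjusted p = 0.37). With array weights the Lcn2-/- difference was 0.41 and was called (adjusted p = 0.030), and without Lcn2-/- CCl4 replicate 1 it was 0.13 (adjusted p = 0.66).

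Hfe, the membrane protein that is mutated in the common form of hereditary iron overload, had close replicates. Its probe, at chr13:23795710-23795769 (mm9, minus strand), read 13.73, 13.71, 13.78 and 13.65 in WT controls against 13.49, 13.64, 13.47, 13.45 and 13.52 after CCl4, and 13.65, 13.60 and 13.72 in Lcn2-/- controls against 13.53, 13.47, 13.59 and 13.35. In each genotype every CCl4 array lay below every control, and 17.4% of all genes in WT and 24.8% in Lcn2-/- livers likewise had groups that did not overlap. The difference was small, -0.20 ± 0.08 in WT (adjusted p = 0.099, interval -0.38 to -0.03) and -0.17 ± 0.09 in Lcn2-/- (adjusted p = 0.24), and it did not pass the test, except in WT with array weights (-0.22, adjusted p = 0.028). Tfr2, the hepatocyte's sensor of iron-loaded transferrin, read 17.36, 17.08, 17.12 and 17.35 in WT controls, 17.07, 17.03, 16.99, 17.29 and 16.98 after CCl4, 17.29, 17.23 and 17.36 in Lcn2-/- controls and 17.07, 16.97, 17.37 and 17.25 after CCl4, with overlap throughout. Its CCl4 difference was -0.16 ± 0.11 in WT (adjusted p = 0.35) and -0.13 ± 0.12 in Lcn2-/- (adjusted p = 0.54). With arrays scaled to the 75th percentile Tfr2 was called in WT at -0.45 (adjusted p = 0.035), a scaling under which the median of all genes was -0.164 in the same contrast.

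Beyond the 10 genes, a wider list of 57 iron genes held 56 that were tested, of which 6 rose and 2 fell with CCl4 in WT livers and 6 rose and 1 fell in Lcn2-/- livers, against 8.01% higher and 8.8% lower, and 6.57% higher and 5.61% lower, of all genes. These counts include Cybrd1 and Cd163, which passed the filter on dim probes only through the groups where they are high, and without them are 5 higher and 1 lower in WT and 5 and 0 in Lcn2-/- livers. In its hepcidin signalling group 1 of 17 rose in WT (Hamp2) and 2 of 17 in Lcn2-/- (Hamp2 and Tmprss6). The transcripts that BMP and SMAD signalling commonly induces did not pass the test in either genotype. Id1 differed by 0.54 ± 0.53 in WT and 0.40 ± 0.61 in Lcn2-/-, Smad7 by 0.24 ± 0.15 and -0.21 ± 0.17, Smad6 by 0.15 ± 0.18 and -0.23 ± 0.21 and Atoh8 by 0.03 ± 0.36 and -0.07 ± 0.41. Bmp2, another endothelial ligand, differed by -0.31 ± 0.16 and -0.15 ± 0.19, and Hjv, the BMP co-receptor hemojuvelin, by 0.10 ± 0.41 and 0.48 ± 0.47. Tmprss6, the protease that cleaves hemojuvelin, rose by 0.43 ± 0.11 in Lcn2-/- livers (adjusted p = 0.019), where all 4 CCl4 arrays (17.17 to 17.44) lay above the 3 controls (16.84 to 16.93). Groups did not overlap for 24.8% of all genes in that comparison. In WT livers Tmprss6 differed by 0.07 ± 0.10 (adjusted p = 0.68), and the difference between the genotypes' responses was 0.36 ± 0.14 (adjusted p = 1.00). The Tmprss6 call was lost with the slide as a block (0.25, adjusted p = 0.56), with the 75th percentile scaling (0.21, adjusted p = 0.44) and without any of the 3 Lcn2-/- controls (adjusted p 0.055 to 0.062).

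Of the inflammatory route to hepcidin, 11 of 12 listed genes were tested and 2 were called, both in WT livers, where 16.8% of all genes were called. Il6st, the shared signal receptor of the interleukin 6 family, rose by 0.35 ± 0.10 (adjusted p = 0.030), from 12.74 to 13.09 in controls to 13.13 to 13.39 after CCl4. Saa2, an acute-phase serum amyloid, fell by 1.48 on the log2 scale (SE 0.44, adjusted p = 0.031). Saa2 read 18.36, 18.44, 18.46 and 17.48 in WT controls and 16.34, 17.67, 17.26, 15.72 and 16.52 after CCl4, so only WT CCl4 replicate 2 reached into the control range. In Lcn2-/- livers Il6st differed by 0.22 ± 0.11 (adjusted p = 0.23) and Saa2 by -1.41 ± 0.50 (adjusted p = 0.080), and 0 of 11 were called, against 12.2% of all genes. Each of these WT calls was kept in 10 of 16 fits that left out 1 array, and with the slide as a block neither was (0.22 for Il6st, adjusted p = 0.49, and -1.84 for Saa2, adjusted p = 0.18). Il6st also lost its call with the 75th percentile scaling (0.23, adjusted p = 0.17) and the authors' value table (adjusted p = 0.055), and Saa2 with the replicate number as a block (-1.43, adjusted p = 0.064) and without the filter on dim probes (adjusted p = 0.051). With that scaling the counts for this list were 0 higher and 3 lower in WT and 0 and 2 in Lcn2-/- livers. The shares of all genes called were then 21.1% and 13.3%. With array weights the counts were 1 and 1 in each genotype, where 29% and 28.5% of all genes were called.

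Slc40a1, the iron exporter ferroportin, had the widest spread among WT controls of all 10 genes. It read 15.44, 15.76, 15.54 and 14.75 there, 14.71, 15.26, 15.55, 15.45 and 15.00 in WT CCl4, 15.13, 15.52 and 15.43 in Lcn2-/- controls and 15.24, 15.30, 15.16 and 15.26 in Lcn2-/- CCl4 livers. No groups separated. The CCl4 difference was -0.18 ± 0.20 in WT (adjusted p = 0.59, interval -0.61 to 0.25) and -0.12 ± 0.23 in Lcn2-/- (adjusted p = 0.77, interval -0.61 to 0.37). When 1 array was left out, the Slc40a1 difference ran from -0.38 to -0.046 in WT and from -0.24 to -0.044 in Lcn2-/- livers. Its probe lies at chr1:45965255-45965314 (mm9, minus strand).

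On the import side, Slc11a2 was the member that passed the test. Its brightest probe, at chr15:100218333-100218392 (mm9, minus strand), read 9.36, 9.18, 9.98 and 9.53 in WT controls and 10.28, 10.18, 9.98, 10.35 and 10.57 after CCl4. Every CCl4 array was above every control, as 17.4% of all genes had groups without overlap in WT livers, though WT control replicate 3 and WT CCl4 replicate 3 were equal to the second decimal. The rise was 0.76 ± 0.18 (1.69-fold, adjusted p = 0.012, interval 0.36 to 1.16), and it was called in each of 16 fits that left out 1 array (0.65 to 0.91). In Lcn2-/- livers the probe read 9.93, 9.66 and 10.11 in controls and 10.26, 10.08, 10.66 and 10.74 after CCl4, which overlapped, and the difference of 0.54 ± 0.21 was not called (adjusted p = 0.11, interval 0.09 to 0.99). The responses of the genotypes were not shown to differ (interaction -0.22 ± 0.28, adjusted p = 1.00). A second Slc11a2 probe, 22183 bases away at chr15:100240516-100240575, gave the opposite sign. It read 7.08, 7.02, 6.97 and 7.36 in WT controls and 7.43, 6.88, 6.59, 7.11 and 6.89 after CCl4, a difference of -0.13 (adjusted p = 0.67), and its Lcn2-/- difference was -0.32 (adjusted p = 0.34). The mean of both probes gave 0.32 (adjusted p = 0.16), so the call rested on the brightest probe. Slc11a2 transcripts with different 3′ ends are known, and which of them each probe detects was not tested. With the slide as a block the rise kept its size, 0.76, but not its call (adjusted p = 0.20), and the WT CCl4 array on the controls' slide read 10.28.

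**Figure D3:**
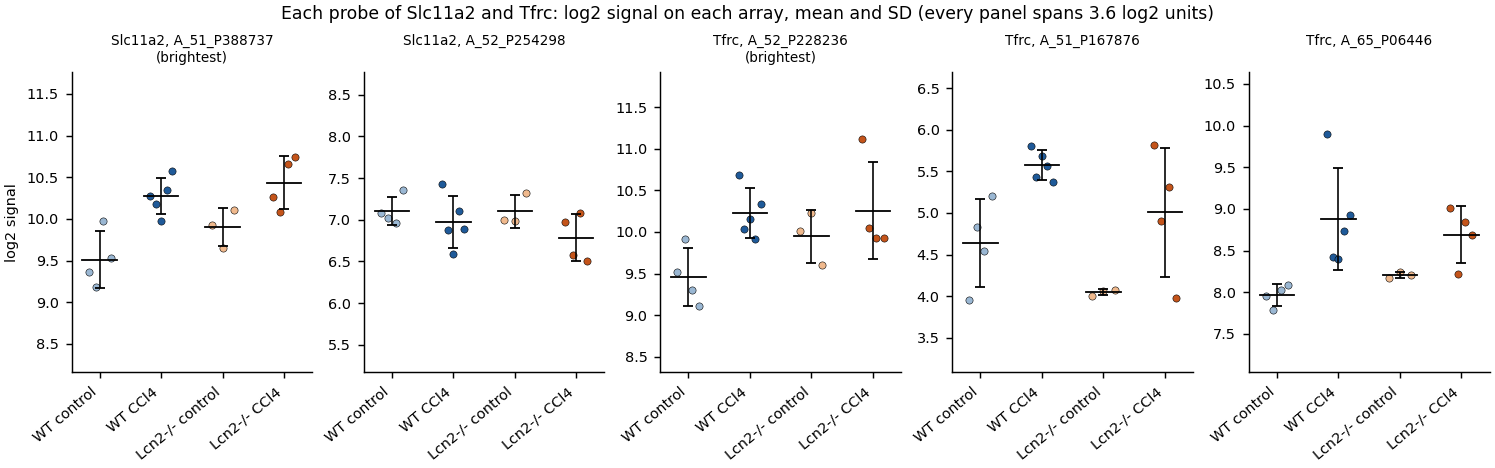
Log2 signal on each array (points) by group for the 2 probes of Slc11a2 and the 3 probes of Tfrc, with mean (bar) and SD; every panel spans the same number of log2 units. The brightest Slc11a2 probe has higher means after CCl4 and the other probe lower means, and that other probe was called in neither genotype. The Tfrc probes have higher means after CCl4 in WT livers, with A_51_P167876 not well above background on any control.

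Tfrc, the receptor that brings transferrin-bound iron into the cell, came close to the threshold in WT livers. Its brightest probe, printed on 10 spots at chr16:32632255-32632314 (mm9, plus strand), read 9.52, 9.92, 9.30 and 9.11 in WT controls and 10.69, 10.04, 10.16, 9.92 and 10.33 after CCl4, which touched at 9.92. The difference was 0.76 ± 0.26 (adjusted p = 0.054, interval 0.22 to 1.31). It was called with the mean of all Tfrc probes (0.87, adjusted p = 0.011), with the 75th percentile scaling (0.74, adjusted p = 0.048), with the replicate number as a block (0.74, adjusted p = 0.042) and with array weights (0.62, adjusted p = 0.049). It was not called with the slide as a fixed block (1.23, adjusted p = 0.11), without both controls numbered 3 (0.71, adjusted p = 0.095), without the filter on dim probes (adjusted p = 0.081), or with normexp, the authors' value table or the slide as a random block (adjusted p 0.050 to 0.051). A probe at chr16:32620470-32620529 read 7.95, 7.78, 8.03 and 8.08 in WT controls and 9.90, 8.42, 8.39, 8.73 and 8.93 after CCl4, without overlap (as for 17.4% of all genes), a rise of 0.91 (adjusted p = 0.027 over all probes). The remaining Tfrc probe was well above background on 0 of 4 WT controls and 5 of 5 WT CCl4 arrays, and so has only a bound, at least 1.27-fold higher after CCl4, and was not called. That probe passed the filter on dim probes only through the CCl4 arrays, so it had to differ. The mean of all Tfrc probes includes it, so the call with that mean is not separate support. In Lcn2-/- livers the brightest probe read 10.01, 10.23 and 9.61 in controls and 11.12, 10.05, 9.93 and 9.93 after CCl4. Replicate 1 alone stood above the control range, the difference was 0.31 ± 0.29 (adjusted p = 0.54), and without that array it was 0.018. The same array widened the spread shared by all groups, and without it the WT difference of 0.76 was called (adjusted p = 0.015), as it was without WT control replicate 2 (0.92, adjusted p = 0.045). Lcn2-/- minus WT in controls was 0.49 ± 0.29 (adjusted p = 0.79).

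Trf, the plasma iron carrier transferrin, had small differences throughout. It read 18.90, 18.90, 18.78 and 18.75 in WT controls, 18.73, 18.85, 18.95, 18.79 and 18.63 after CCl4, 18.93, 18.92 and 18.59 in Lcn2-/- controls and 18.82, 18.92, 18.70 and 18.55 after CCl4. The CCl4 difference was -0.05 ± 0.11 in WT (interval -0.27 to 0.18) and -0.06 ± 0.12 in Lcn2-/- (interval -0.33 to 0.20), and a second probe gave -0.012 and -0.14. Fth1, the ferritin heavy chain that oxidises and stores iron, read 18.45, 18.47, 18.65 and 18.55 in WT controls, 18.61, 18.61, 18.51, 18.51 and 18.48 after CCl4, 18.50, 18.47 and 18.56 in Lcn2-/- controls and 18.47, 18.55, 18.44 and 18.50 after CCl4. Its CCl4 differences of 0.02 ± 0.08 in WT and -0.02 ± 0.09 in Lcn2-/- had the narrowest intervals of the 10 genes (-0.15 to 0.18 and -0.21 to 0.17). Trf and Fth1 are among the brightest genes shown, where quantile normalisation limits how far a gene can move. Narrow intervals there do not by themselves show a steady transcript level. Scaled to the 75th percentile, Fth1 fell by 0.46 in WT (adjusted p = 0.020) and fell by 0.45 in Lcn2-/- livers (adjusted p = 0.0497), against shifts of -0.164 and -0.143 in the median of all genes. Ftl1, the ferritin light chain, differed by -0.06 ± 0.10 and -0.15 ± 0.12. Of 7 genes of storage and iron regulatory protein control 0 were called in either genotype, against 16.8% of all genes in WT and 12.2% in Lcn2-/- livers.

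Bdh2, the enzyme linked to siderophore synthesis, read 14.56, 14.19, 14.23 and 14.35 in WT controls, 14.39, 13.98, 14.52, 14.68 and 14.62 after CCl4, 14.44, 13.98 and 14.50 in Lcn2-/- controls and 14.20, 14.61, 14.70 and 14.92 after CCl4. All groups overlapped. Its CCl4 difference was 0.11 ± 0.17 in WT (adjusted p = 0.73, interval -0.27 to 0.48) and 0.30 ± 0.20 in Lcn2-/- (adjusted p = 0.35, interval -0.12 to 0.73). Fits without 1 array gave 0.045 to 0.22 in WT and 0.14 to 0.44 in Lcn2-/- livers. Loss of Lcn2 went with a difference of 0.17 ± 0.17 after CCl4 and -0.03 ± 0.20 in controls. Of the lipocalin 2 receptors, Slc22a17 differed by 0.02 ± 0.16 in controls and -0.18 ± 0.14 after CCl4 between the genotypes. Lrp2, the large endocytic receptor megalin, was higher in Lcn2-/- livers. Its probe, at chr2:69262566-69262625 (mm9, minus strand), lies on the chromosome of Lcn2 (probe at chr2:32240199-32240258). Donor DNA carried on that chromosome cannot be told apart from the loss of Lcn2. Lrp2 read 6.92, 6.02, 5.71 and 7.19 in WT controls against 9.56, 9.43 and 7.97 in Lcn2-/- controls, and 7.23, 6.74, 5.66, 5.31 and 6.81 against 8.16, 8.15, 8.69 and 9.11 after CCl4, without overlap in either treatment. Of all genes, 9.64% in controls and 5.66% after CCl4 had groups that did not overlap. The differences were 2.53 ± 0.52 in controls (5.76-fold, adjusted p = 0.047) and 2.18 ± 0.46 after CCl4 (4.52-fold, adjusted p = 0.048). Both sat at the threshold, with the call kept in 4 and 3 of 16 fits that left out 1 array, and with the replicate number as a block both were lost (adjusted p = 0.091 and 0.075), as they were without the filter on dim probes (adjusted p = 0.054 and 0.076).

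**Figure D4:**
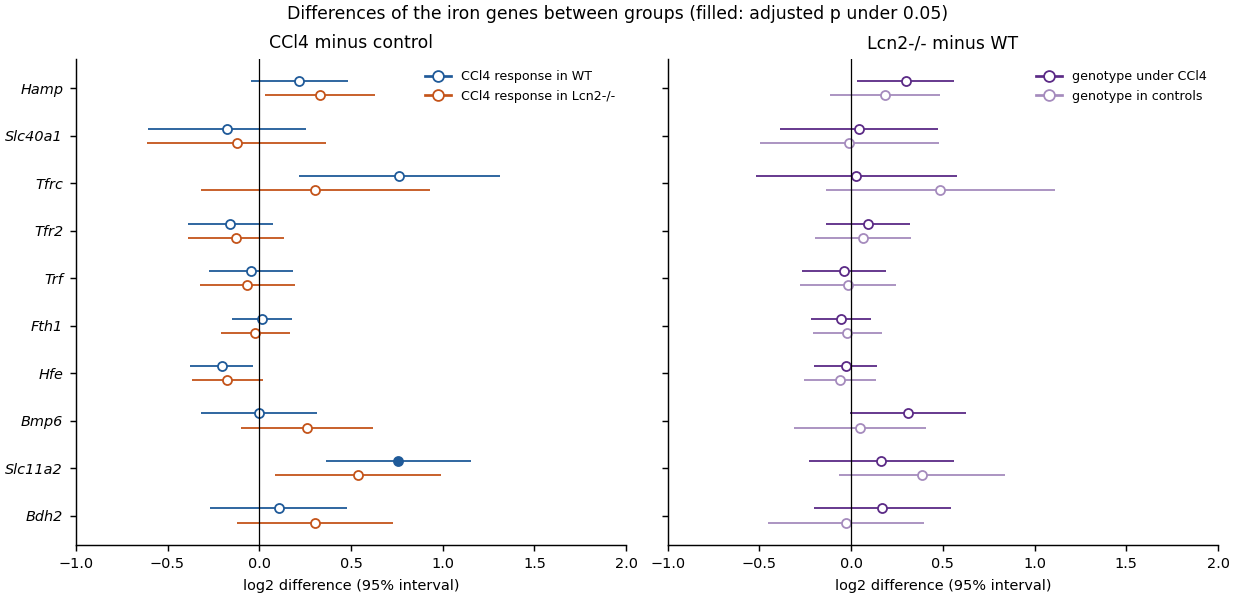
Log2 differences of the 10 genes with their 95% intervals: CCl4 minus control in each genotype (left) and Lcn2-/- minus WT in each treatment (right). Filled points passed an adjusted p of 0.05, which Slc11a2 in WT livers did alone; no genotype difference passed.

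Genes of iron transport, reduction and oxidation followed. Of 11 transport and reduction genes 3 rose in WT and 3 in Lcn2-/- livers, and these were Steap2, Cybrd1 and Heph in both, where 8.01% and 6.57% of all genes rose. Steap2, a metalloreductase, rose by 2.18 ± 0.29 in WT (4.54-fold, adjusted p = 0.00014) and 1.81 ± 0.33 in Lcn2-/- (3.50-fold, adjusted p = 0.0024), with WT controls at 8.27 to 8.99 and WT CCl4 arrays at 10.47 to 11.29. Heph, the copper ferroxidase hephaestin that works beside ferroportin, rose by 1.34 ± 0.21 (2.53-fold, adjusted p = 0.00053) and 1.59 ± 0.24 (3.02-fold, adjusted p = 0.00066), from 8.55 to 8.99 in WT controls to 9.77 to 10.50. Cybrd1, the ferric reductase of the duodenum, was not well above background on any of the 7 controls and was so on 5 of 5 WT and 3 of 4 Lcn2-/- CCl4 arrays, which makes it at least 2.19-fold higher in WT (adjusted p = 0.0081) and at least 2.45-fold higher in Lcn2-/- livers (adjusted p = 0.0080). Such bounds set the mean of the brighter group against the lowest signal that counts as well above background on each array of the dimmer group, or the gene's own where higher. Cybrd1 passed the filter on dim probes only through the CCl4 arrays, so it had to differ, and without it the count was 2 in each genotype. Cp, the plasma ferroxidase ceruloplasmin, and Slc39a14, an importer of iron that is not bound to transferrin, were among the 8 not called. With the slide as a block Heph stayed called in both genotypes (adjusted p = 0.012 and 0.024) and Steap2 in WT, whereas Steap2 in Lcn2-/- (adjusted p = 0.056) and Cybrd1 in WT (0.098) and Lcn2-/- livers (0.15) did not. The Heph calls were lost with the mean of its probes (0.70, adjusted p = 0.080, and 0.89, adjusted p = 0.064). Steap2, Heph and Cybrd1 are not specific to hepatocytes, and all rose alongside the stellate and other marker changes given above.

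**Figure D5:**
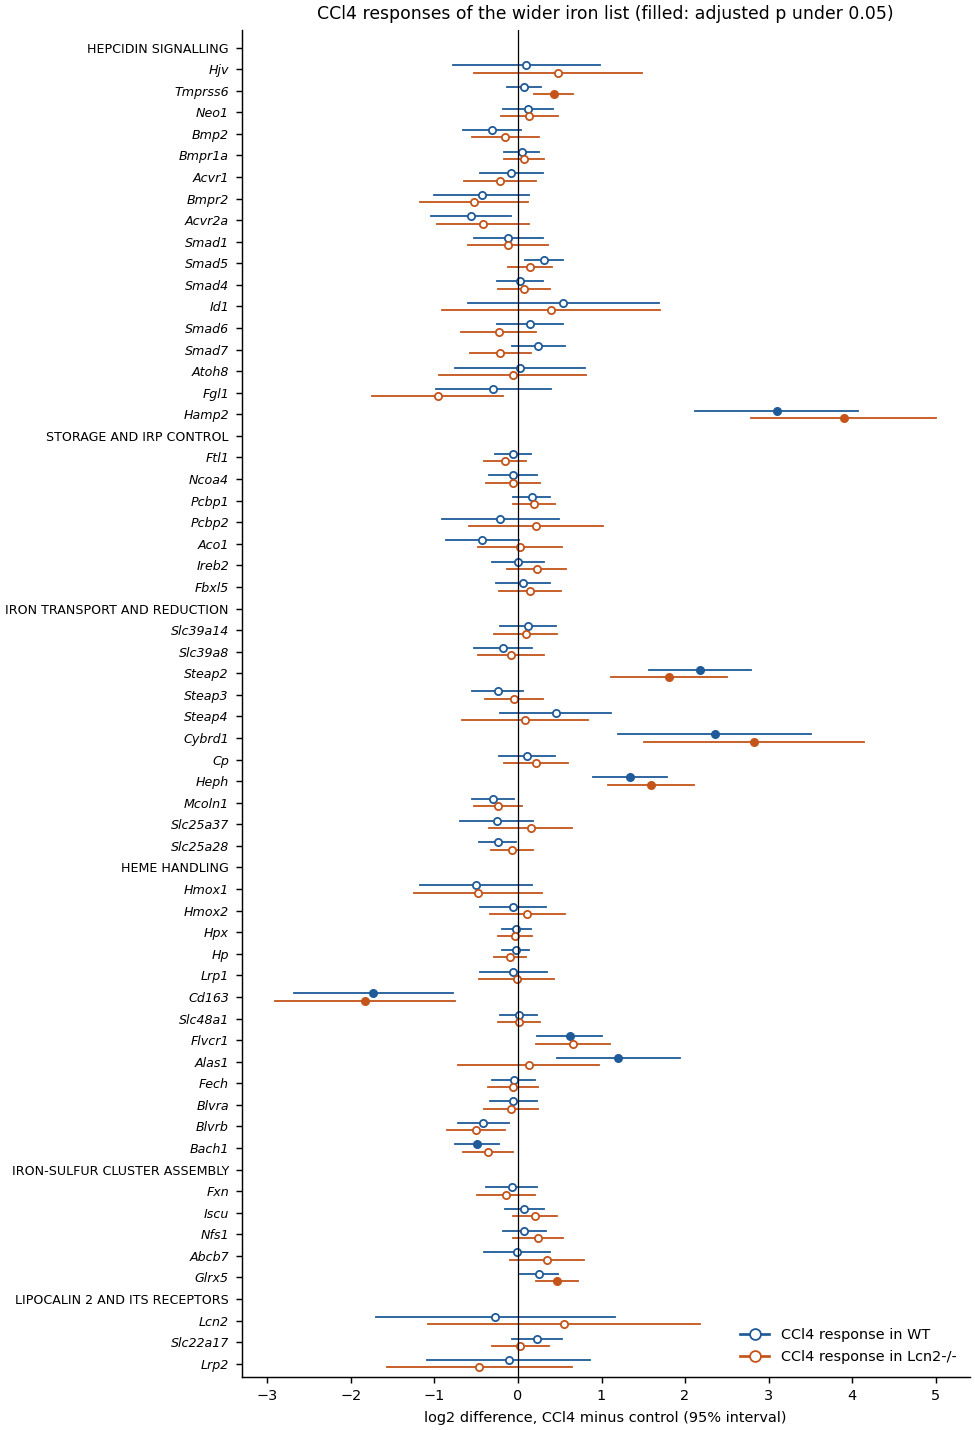
CCl4 minus control as log2 differences with 95% intervals for the 56 tested genes of the wider iron list, grouped by role, in WT (blue) and Lcn2-/- (orange) livers. Filled points passed an adjusted p of 0.05; Hamp2, Steap2, Cybrd1, Heph and Cd163 did so in both genotypes, and the points and intervals of Cybrd1 and Cd163 rest on arrays not well above background and are not exact.

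Heme handling gave 2 higher and 2 lower of 13 in WT, against 8.01% and 8.8% of all genes, and 1 lower in Lcn2-/- livers, against 5.61%. Alas1, the first enzyme of heme synthesis, rose in WT by 1.20 ± 0.35 (2.30-fold, adjusted p = 0.028), from 17.11, 16.20, 16.89 and 15.20 to 17.85, 17.96, 16.80, 17.45 and 17.70, while Lcn2-/- livers read 17.52, 18.10 and 17.80 in controls and 17.42 to 18.18 after CCl4 (0.13 ± 0.39). The Alas1 call was lost with the slide as a block (1.50, adjusted p = 0.17), with the mean of its probes (0.73, adjusted p = 0.14), with the 75th percentile scaling (0.88, adjusted p = 0.079) and with the replicate number as a block (1.16, adjusted p = 0.066). The Lcn2-/- controls all lay above the WT controls (1.46 ± 0.39, adjusted p = 0.16), where 9.64% of all genes had groups that did not overlap, and the difference between responses was -1.08 ± 0.52 (adjusted p = 1.00). Flvcr1, a heme exporter, rose by 0.62 ± 0.18 in WT (adjusted p = 0.030), a call lost with the replicate number as a block (0.52, adjusted p = 0.0505), and differed by 0.66 ± 0.21 in Lcn2-/- livers (adjusted p = 0.051). Bach1, the heme-sensing repressor of Hmox1, fell by 0.49 in WT (SE 0.12, adjusted p = 0.014), where 12.65 to 12.85 became 11.86 to 12.40, and Hmox1 itself differed by -0.50 ± 0.31 (adjusted p = 0.31). In Lcn2-/- livers Bach1 differed by -0.36 ± 0.14 (adjusted p = 0.12). Every CCl4 array lay below every control for Bach1 in both genotypes, where 17.4% and 24.8% of all genes had groups that did not overlap. Cd163, the macrophage scavenger of hemoglobin with haptoglobin, was well above background on 4 of 4 WT controls but on 1 of 5 WT CCl4, 1 of 3 Lcn2-/- control and 0 of 4 Lcn2-/- CCl4 arrays. It passed the filter on dim probes only with the WT controls, the group where it is high, and is counted above as the 1 lower call in Lcn2-/- livers and 1 of the 2 in WT. The adjusted p was 0.016 in WT and 0.029 in Lcn2-/- livers, and no fold is given because the CCl4 groups, and the Lcn2-/- controls, lay mostly at background. The Cd163 call in Lcn2-/- livers was lost without the controls numbered 3 (adjusted p = 0.12). With the slide as a block Alas1, Flvcr1, Bach1 and Cd163 were called in neither genotype. Of 8 macrophage markers, Clec4f and Timd4 of Kupffer cells fell in WT livers too, by 1.03 and 1.29. Cd68 rose there by 2.12, and the rest were not called. In Lcn2-/- livers Clec4f (-0.54, adjusted p = 0.18) and Timd4 (-0.99, adjusted p = 0.15) were not called, and Cd68 rose by 1.84. The part of these markers in the Cd163 result was not tested. Glrx5, which hands on iron-sulfur clusters in mitochondria, was the only called gene of 5 in its group. Of all genes, 8.01% rose in WT and 6.57% in Lcn2-/- livers. Glrx5 rose in Lcn2-/- livers by 0.47 ± 0.12 (adjusted p = 0.019), against 0.25 ± 0.10 in WT (adjusted p = 0.12). It was not called with the slide as a block (0.59, adjusted p = 0.19), with the 75th percentile scaling (0.32, adjusted p = 0.28), without both controls numbered 3 (0.42, adjusted p = 0.069), or without Lcn2-/- control replicate 1 or 3 (adjusted p = 0.055 and 0.065).

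By the smallest root mean square difference of mean-centred log2 values over the 16 arrays, the 5 genes whose pattern was most like that of Hamp were Mpv17 (0.117), Bckdha (0.133), Trmt1l (0.142), Endog (0.145) and Dele1 (0.146). All are low-variance patterns, with Mpv17 averaging 13.45 ± 0.03 (SD, n = 4) in WT controls, 13.61 ± 0.11 (n = 5) after CCl4, 13.48 ± 0.06 (n = 3) in Lcn2-/- controls and 13.82 ± 0.06 (n = 4) after CCl4. The measure favours genes that vary as little as Hamp does.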

How the data were processed

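Total liver RNA was labelled with Cy3 and hybridised to Agilent SurePrint G3 mouse arrays, 1 array per sample (16 arrays, 4 groups). The authors deposited scanner files made with Feature Extraction 10.7.3.1, per the file headers, whose processed signal is an intensity on a linear scale, already background-corrected. The authors' deposited value table is on a log2 scale, and set against the scanner files it holds the median signal minus background, quantile normalised and not centred (column medians 6.532 to 6.551), and per the authors' processing notes limma was used.

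The log2 of the processed signal was quantile normalised over all arrays, spots of a probe were averaged, control spots were left out, and probes well above background on fewer than 3 arrays were dropped. Each gene was represented by its probe with the highest mean, which left 24356 genes. Gene names came from unversioned RefSeq accessions (names of GRCm38.p6) for 61% of genes and from the files otherwise, and probe positions are those of the files, on mm9. Exon and UTR positions on mm9 were not analysed here. A limma model of the 4 groups (limma 3.58.1, R 4.3.3) gave 5 contrasts, with Benjamini-Hochberg adjustment over all genes and a threshold of 0.05. The model's adjusted p for single probes was taken over all probes. The code was tested on simulated data. Tables and plots used Python 3.11.15, pandas 2.3.3 and matplotlib 3.10.9.

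Same-numbered WT and Lcn2-/- controls deviated together from their group means (r = 0.233, 0.368 and 0.552), which meets the criterion for paired samples, whereas no other pair of groups did, and the replicate number as a block was an alternative fit. Other alternatives were 75th percentile scaling, normexp, the authors' value table, no filter on dim probes, the mean of all probes, the slide as a fixed or random block (consensus correlation -0.0186), array weights, and leaving out each array. No array repeated the values of another (highest r between arrays 0.9916). The members and lists were chosen with earlier results of these data known. The text names the 10 members, Lcn2, a fixed set of hepcidin pathway genes and Ftl1, Hmox1, Slc22a17 and Lrp2, called genes of the iron and inflammatory lists (at most 8 a direction), and the 5 genes most like Hamp; marker genes, Cp and Slc39a14 were named beside them.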

Additional observations from a re-analysis of the deposited data

Results flagged for a closer look

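A single array stood apart from the rest of its group, by Dixon's gap test, in 5 of 99 tests over 33 genes, about as often as chance gives. Tfrc read 11.12 on Lcn2-/- CCl4 replicate 1 and 9.93 to 10.05 on the others. Steap2 on the same array read 11.77, against 11.07 to 11.15. WT control replicate 4 stood apart for 3 genes. Bmp6 read 9.12 there and 8.88 to 8.91 on the other WT controls, Glrx5 read 16.09 against 16.29 to 16.31, and Saa2 read 17.48 against 18.36 to 18.46. Whether these arrays differ in handling was not tested. The interaction test called none of the genes named here (limma, adjusted p under 0.05).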

How the results depend on the processing

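Of 500 member differences refitted under 10 other settings, 445 kept their direction and side of the threshold, 2 lost a call, 9 gained a call and 44 changed sign, and of 800 refitted without 1 array the counts were 753, 0, 2 and 45. Of all these sign changes 88 lay between uncalled values, and the remaining 1 was Fth1 in WT. The number of members called after CCl4 in WT livers was 1, and became 4 with the 75th percentile scaling, 0 with the slide as a fixed block, 2 with the replicate block and 3 with array weights, where 21.1%, 5.34%, 15.5% and 29% of all genes were called against 16.8%, and 1 to 2 when 1 array was left out. In Lcn2-/- livers it was 0, and became 1 with the 75th percentile scaling and 2 with array weights (Slc11a2 at 0.56, adjusted p = 0.020, and Bmp6 at 0.41, adjusted p = 0.030), where 13.3% and 28.5% of all genes were called against 12.2%. The replicate block left the other 3 counts of members at 0. For the 57 iron genes the replicate block gave 4 higher and 2 lower in WT, without Flvcr1 and Alas1, and 6 and 1 in Lcn2-/- livers (15.5% and 12.2% of all genes). With the slide as a fixed block these counts were 3 and 0, and 1 and 0 (5.34% and 1.74%). With array weights they were 7 and 7, and 8 and 2 (29% and 28.5%). With the 75th percentile scaling they were 5 and 6, and 4 and 5 (21.1% and 13.3%). Without both controls numbered 3, a setting chosen after seeing the data, they were 6 and 4, and 5 and 0 (22.4% and 15.1%). With the 75th percentile scaling the sign turned for CCl4 in WT in Hamp (-0.13), Fth1 (-0.46) and Bdh2 (-0.016), for CCl4 in Lcn2-/- in Hamp (-0.013), for genotype after CCl4 in Trf (0.22), Fth1 (0.18) and Hfe (0.043), for genotype in controls in Slc40a1 (0.050), Trf (0.18), Fth1 (0.18) and Bdh2 (0.0079) and for the interaction in Trf (0.043) and Fth1 (0.0020). With the slide as a fixed block the sign turned for CCl4 in WT in Hamp (-0.12) and Bmp6 (0.26), for CCl4 in Lcn2-/- in Hamp (-0.096) and Fth1 (0.061), for genotype after CCl4 in Slc40a1 (-0.077) and for the interaction in Slc40a1 (-0.067). With normexp background correction the sign turned for CCl4 in WT in Bmp6 (0.015), for genotype in controls in Slc40a1 (0.013) and for the interaction in Tfr2 (-0.061). With the authors' value table the sign turned for CCl4 in WT in Bmp6 (1.2e-05), for genotype in controls in Slc40a1 (0.0092) and Bdh2 (0.0056) and for the interaction in Tfr2 (-0.053). With the replicate block the sign turned for CCl4 in WT in Bmp6 (0.069), for genotype after CCl4 in Slc40a1 (-0.0043), for genotype in controls in Bdh2 (0.043) and for the interaction in Tfr2 (-0.038). With array weights the sign turned for CCl4 in WT in Bmp6 (0.048), for genotype after CCl4 in Slc40a1 (-0.089) and Hfe (0.028) and for genotype in controls in Trf (0.042), Fth1 (0.0030) and Bmp6 (-0.044). With both controls numbered 3 left out the sign turned for CCl4 in Lcn2-/- in Fth1 (0.0052) and for genotype in controls in Slc40a1 (0.0097), Tfr2 (-0.0069), Trf (0.079) and Bmp6 (-0.050). With the mean of all probes the sign turned for genotype after CCl4 in Tfrc (-0.24) and Slc11a2 (-0.014) and for genotype in controls in Trf (0.021). Leaving out 1 array at a time gave, for CCl4 in WT, -0.0094 to 0.056 for Fth1 and -0.067 to 0.069 for Bmp6. Leaving out 1 array at a time gave, for CCl4 in Lcn2-/-, -0.18 to 0.0011 for Trf and -0.042 to 0.0052 for Fth1. Leaving out 1 array at a time gave, for genotype after CCl4, -0.077 to 0.13 for Slc40a1, -0.26 to 0.14 for Tfrc, -0.093 to 0.029 for Trf and -0.063 to 0.018 for Hfe. Leaving out 1 array at a time gave, for genotype in controls, -0.22 to 0.12 for Slc40a1, -0.076 to 0.096 for Trf, -0.046 to 0.019 for Fth1, -0.025 to 0.13 for Bmp6 and -0.12 to 0.14 for Bdh2. Leaving out 1 array at a time gave, for the interaction, -0.077 to 0.26 for Slc40a1, -0.038 to 0.094 for Tfr2, -0.13 to 0.046 for Trf and -0.0037 to 0.077 for Hfe. Calls lost without a single array were, beside those given above, Cd163 in Lcn2-/- without Lcn2-/- CCl4 replicate 1 or 4 or Lcn2-/- control replicate 3 (adjusted p 0.054 to 0.11), Flvcr1 in WT without WT CCl4 replicate 1, 4 or 5 or WT control replicate 1, 2 or 3 (0.055 to 0.098) and Alas1 without WT CCl4 replicate 1, 2 or 5 or WT control replicate 2 or 4 (0.055 to 0.079). Il6st lost its call without WT CCl4 replicate 2, 3 or 4 or WT control replicate 1, 2 or 4, and Saa2 without WT CCl4 replicate 1, 4 or 5 or WT control replicate 1, 2 or 3. The genotype difference of Lcn2 lost its call in controls without Lcn2-/- control replicate 1 or 2 (0.12 and 0.076) and after CCl4 in 13 of 16 such fits (up to 0.11). The causes of these differences between settings were not tested. With 3 to 5 arrays a group, the number of arrays limits the precision.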
